A study of Mus musculus with 4 samples.

Results

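Collagen genes were examined in RNA sequencing of fibroblasts from mouse lung, cells that lay down the matrix of the tissue. Of the 2979 genes in the deposited table, 9 had a name that begins with Col, a number, the letter a and a number. Of these, 8 encode collagen chains, namely Col1a1, Col1a2, Col3a1, Col5a2, Col5a3, Col6a2, Col12a1 and Col18a1. The other, Col4a3bp, encodes a ceramide transfer protein and is not a collagen, so its values are given separately. The 8 chains were divided by textbook class into 5 fibrillar chains (Col1a1, Col1a2, Col3a1, Col5a2, Col5a3) and 3 other chains (Col6a2, Col12a1, Col18a1). The cells came from the lungs of wild-type BALB/c mice aged 4 weeks. The control group (n = 2 libraries) was untreated, and the chemokine group (n = 2 libraries) had received the recombinant human chemokines CXCL1 (8 nM), CXCL2 (2 nM) and CXCL8 (20 nM) together for 3 hours. The comparison asks how these neutrophil-attracting chemokines affect the transcripts of lung fibroblasts. The labels do not say whether the replicates came from separate animals or cultures, so p-values measure only the spread between these libraries, which may be technical.

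Collagens are proteins in which 3 chains wind into a triple helix, a fold that needs a glycine in each triplet of residues. Fibrillar collagens form the tensile fibrils of lung interstitium and vessel walls, and their chains are made as procollagens whose ends are cleaved after secretion. The other classes associate with fibril surfaces, form beaded microfibrils or sit in basement membranes. Fibroblasts are a main source of types I, III, V, VI and XII.

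The difference between the classes was visible in the coding sequences. A run was counted as unbroken while each triplet of codons began with a glycine codon (GGN). The longest unbroken run was 338 triplets in Col1a1, 339 in Col1a2, 344 in Col3a1, 339 in Col5a2 and 337 in Col5a3. It was 87 triplets in Col6a2, 32 in Col12a1 and 30 in Col18a1, so fibrillar and other chains did not overlap. Runs of at least 5 triplets covered between 61.1% (Col5a3) and 77.2% (Col1a2) of the codons of fibrillar chains. They covered 31.9% of Col6a2, 28.6% of Col18a1 and 8.12% of Col12a1.

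**Figure D1:**
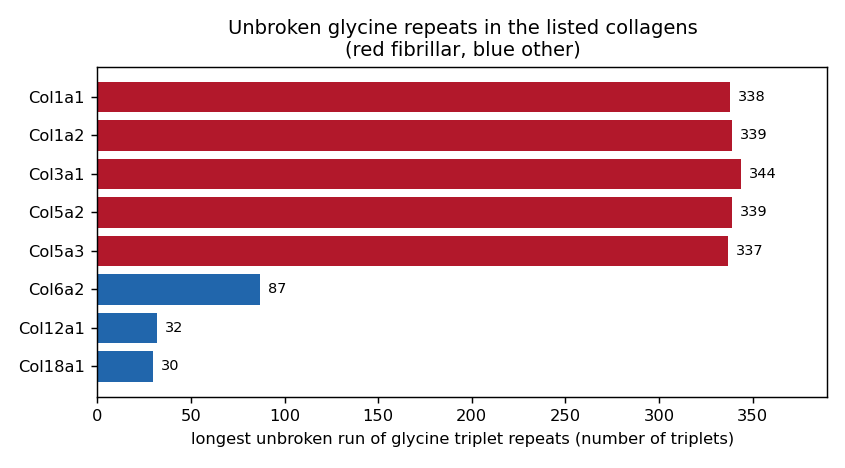
Longest unbroken run of glycine triplets (x axis, number of triplets) in the longest annotated coding sequence of each listed collagen, with fibrillar chains in red and other chains in blue. The 5 fibrillar chains lie between 337 and 344 triplets and the 3 others between 30 and 87.

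Much of the fibrillar helix is encoded in exons of 54 bases. Exons of this length in which each triplet of codons began with a glycine codon numbered 21 in Col1a1, 23 in Col1a2, 24 in Col3a1, 24 in Col5a2 and 31 in Col5a3. There were 2 in Col6a2, 4 in Col12a1 and 1 in Col18a1. The first such exon of the 4 genes on which the results below turn is printed 5′ to 3′ on the coding strand, from the GENCODE transcripts on GRCm38. Capitals mark the first bases of the glycine codon that opens each triplet of codons, and other glycine codons are left in lower case. They come from exon 8 of Col1a1 (chr11:94939904-94939957, plus strand), exon 6 of Col3a1 (chr1:45325360-45325413, plus strand), exon 55 of Col12a1 (chr9:79614349-79614402, minus strand) and exon 27 of Col18a1 (chr10:77067379-77067432, minus strand).
Col1a1: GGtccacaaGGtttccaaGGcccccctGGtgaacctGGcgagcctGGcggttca
Col3a1: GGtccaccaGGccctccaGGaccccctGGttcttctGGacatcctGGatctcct
Col12a1: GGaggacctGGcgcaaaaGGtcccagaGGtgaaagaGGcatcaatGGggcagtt
Col18a1: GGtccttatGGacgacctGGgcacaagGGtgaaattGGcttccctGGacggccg

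Values in the table are RPKM, reads scaled by gene length and library total, and the reads behind them could be recovered. Implied library totals ran from 28603764 to 36863654 reads, and collagen genes had between 1281 and 120051 reads per library. For Col3a1 and Col1a2 the length behind the RPKM could not be matched to the annotation, so their reads are the best fit and not exact. The table holds only genes that the authors had selected. In all 2979 genes the values of the 2 groups did not overlap, and limma's moderated test on log2(RPKM + 1) called 100% of the 2956 genes tested at an adjusted p under 0.05. That the collagens separate between the groups is therefore fixed by the selection and is no result about them, and collagens outside the table were not analysed here. The direction and the size of each change remain to be described. Of the tested genes 42.8% were called higher and 57.2% lower after chemokine exposure.

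Of the 8 collagens 7 were higher and 1 was lower in the chemokine libraries, all 8 past the threshold. All 5 fibrillar chains rose. Among the others, Col6a2 and Col18a1 rose and Col12a1 fell. The median log2 fold change was 0.22 over the 8 collagens and -0.23 over all tested genes. In bulk RNA, a change in the share of cells that make a collagen cannot be told apart from a change in RNA per cell.

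**Figure D2:**
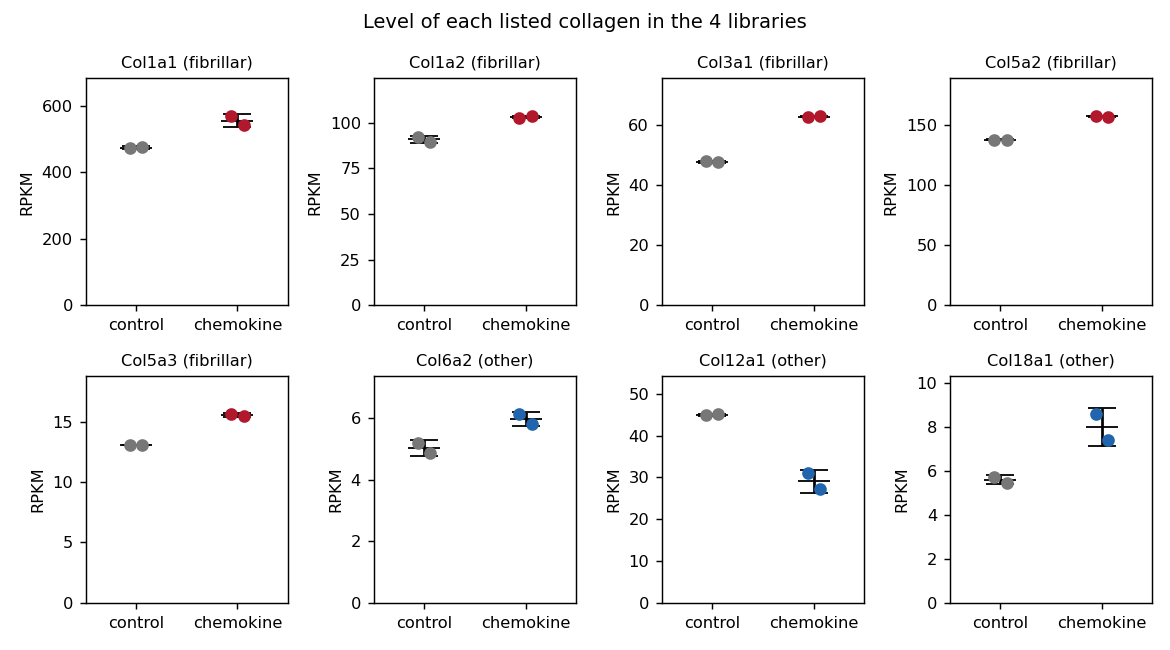
RPKM (y axis, from 0) of each listed collagen in the control and chemokine libraries, with points for single libraries and bars for the mean and SD (n = 2 per group). Col12a1 is the only one of the 8 whose chemokine libraries lie below the controls.

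Type I collagen, the most abundant fibrillar type in lung interstitium, is assembled from the chains of Col1a1 and Col1a2. Col1a1 had the highest level of the 8, with 471 and 476 RPKM in control libraries 1 and 2 and 568 and 540.3 RPKM in chemokine libraries 1 and 2. The gap between the 2 chemokine libraries was 5.002% of their mean, against 1.001% for the controls. On average Col1a1 rose from 474 ± 3.35 RPKM to 554 ± 19.6 RPKM (SD, n = 2 in each group), or by 0.23 ± 0.05 on the log2 scale (SE, limma adjusted p = 0.00174). Col1a2 had 92.1 and 89.6 RPKM in the controls and 102.7 and 103.6 RPKM in the chemokine libraries. Its rise was the smallest of the 7, at 0.18 ± 0.04 on the log2 scale (SE, limma adjusted p = 0.00386). With control 2 left out its log2 fold change was 0.16, and with control 1 left out it was 0.20. The call was lost in the first of these fits, each of which had 1 control library.

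The balance of the 2 type I chains did not separate the groups. Col1a1 over Col1a2 was 5.12 and 5.31 in the controls and 5.53 and 5.22 in the chemokine libraries, as ratios of RPKM, so the ranges overlapped. These ratios depend on the length used. The length behind the Col1a2 values is 2.29 times that of its longest annotated transcript, against 1.11 times for Col1a1. With the lengths of the longest transcripts, the ratio was 2.47 and 2.56 in the controls and 2.67 and 2.52 in the chemokine libraries. Within a gene, ratios of RPKM between libraries do not depend on this length, whereas log2(RPKM + 1) differences of low genes do to a small degree.

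Col3a1 encodes the single chain of type III collagen, which forms mixed fibrils with type I in distensible tissues. It had 48.0 and 47.6 RPKM in the controls and 62.7 and 63.0 RPKM in the chemokine libraries. Replicates differed by 0.861% of their mean in the controls and 0.418% in the chemokine libraries. The Col3a1 log2 fold change of 0.39 ± 0.04 (SE, limma adjusted p = 0.000217) was the largest among fibrillar chains. Col3a1 over Col1a1 was 0.102 and 0.09996 in the controls and 0.110 and 0.117 in the chemokine libraries, as ratios of RPKM, with no overlap. An exact permutation of 2 against 2 libraries cannot give a p below 0.333, and no other test of this ratio was run. Col3a1 shares 141 of its exon bases with Gm47302, an annotated microRNA gene on the same strand, which is 1.44% of its exon bases.

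Type V collagen starts type I fibrils and limits their width, and 2 of its chains were in the table. Col5a2 had 137 and 138 RPKM in the controls and 157 and 157 RPKM in the chemokine libraries. This was a rise of 0.19 ± 0.04 on the log2 scale (SE, limma adjusted p = 0.00265). Replicates of Col5a2 differed by 0.386% and 0.189% of their means. Col5a3, a chain with a narrower tissue range, had 13.1 and 13.0 RPKM in the controls and 15.6 and 15.5 RPKM in the chemokine libraries. It rose by 0.24 ± 0.05 on the log2 scale (SE, limma adjusted p = 0.0015). Col5a2 over Col5a3 was 10.5 and 10.6 in the controls and 10.1 and 10.2 in the chemokine libraries, as ratios of RPKM. This ratio also did not overlap between the groups, and it was not tested.

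The 3 other chains, each of a different class, did not move together. Col12a1, whose product is fibril-associated and binds the surface of type I fibrils, had 44.8 and 45.2 RPKM in the controls. In chemokine libraries 1 and 2 it had 31.0 and 27.2 RPKM, and these 2 differed by 13.3% of their mean. The group mean went from 45.0 ± 0.258 RPKM down to 29.1 ± 2.74 RPKM (SD, n = 2 in each group), which is -0.61 ± 0.06 on the log2 scale (SE, limma adjusted p = 0.000189). It is the largest change of the 8 in either direction. In exact reads, not scaled for the library totals, Col12a1 went from 21752 and 25373 to 13524 and 14012. As a share of library reads it went from 0.0683% and 0.0688% to 0.0473% and 0.0414%.

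Col18a1 encodes a basement membrane collagen whose end is released as endostatin, an inhibitor of vessel growth. It had 5.73 and 5.44 RPKM in the controls and 8.57 and 7.38 RPKM in the chemokine libraries, with exact reads of 1281, 1407, 1722 and 1754. The 2 chemokine libraries differed by 15.0% of their mean, the widest replicate gap among the 8 genes. A log2 fold change of 0.44 ± 0.07 (SE, limma adjusted p = 0.000538) was the largest rise among the 8. In the authors' deposited table its fold was 1.43, the rank 67 from the highest of 2979 genes. Vascular endothelium also makes Col18a1, and of 10 endothelial markers the table held Pecam1 and Sox18, both higher. Their summed level was 3.26 and 3.18 RPKM in the controls and 5.43 and 6.16 RPKM in the chemokine libraries, and their part in the rise of Col18a1 was not tested. The other 8 endothelial markers were not analysed here.

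Col6a2, a chain of the beaded microfibrils that surround cells, was the lowest of the 8 on the deposited scale, though with the length of the longest transcript Col18a1 was lower in the controls. It had 5.19 and 4.85 RPKM in the controls and 6.13 and 5.81 RPKM in the chemokine libraries, with from 1378 to 1638 exact reads per library. It rose by 0.21 ± 0.06 on the log2 scale (SE, limma adjusted p = 0.00536). Without control 2 the adjusted p by limma was 0.0902. Replicates differed by 6.91% of the mean in the controls and 5.28% in the chemokine libraries. The other type VI chains were not analysed here.

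In the controls the order of mean RPKM was Col1a1, Col5a2, Col1a2, Col3a1, Col12a1, Col5a3, Col18a1 and Col6a2, and no neighbours in this order overlapped between libraries. After chemokine exposure the order was the same. The distance between some pairs changed. Col3a1 over Col12a1 was 1.07 and 1.05 in the controls and 2.02 and 2.32 in the chemokine libraries, and Col1a1 over Col12a1 was 10.5 and 10.5 against 18.3 and 19.9, all as ratios of RPKM. Col18a1 over Col6a2 was 1.10 and 1.12 in the controls and 1.40 and 1.27 in the chemokine libraries.

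The classes were compared by their sums and medians, with no test. Fibrillar chains summed to 762 and 764 RPKM in the controls and 906.5 and 879.5 RPKM in the chemokine libraries. The other chains summed to 55.8 and 55.5 RPKM in the controls and 45.7 and 40.4 RPKM in the chemokine libraries. Fibrillar over other was thus 13.7 and 13.8 in the controls and 19.8 and 21.8 in the chemokine libraries. The first sum is mostly Col1a1 and the second mostly Col12a1. The medians tell the classes apart far less, since the median log2 fold change was 0.23 over 5 fibrillar chains and 0.21 over 3 others. The difference is in the range, from 0.18 to 0.39 among fibrillar chains and from -0.61 to 0.44 among the others. Together the 8 genes took 0.687% of reads in both control libraries and 0.780% and 0.756% in chemokine libraries 1 and 2.

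When the test demanded a fold of at least 1.2, Col12a1 alone of the 8 passed (limma adjusted p = 0.00687). The closest to the threshold among the others were Col3a1 (limma adjusted p = 0.0633) and Col18a1 (limma adjusted p = 0.0782). Of all tested genes 3.28% were called higher and 10.5% lower by this rule, 97 and 310 genes. With each library centred on its median, these numbers were 514 and 163, and 2 collagens were called higher. All p-values of this rule come from the selected genes, whose groups all separate, so they can be too small.

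The direction of change across the table went with gene length, and the collagens that rose stood on the other side of it. Over all tested genes the log2 fold change fell with the number of exon bases (Spearman's rho -0.72 across 2953 genes, which share the same 4 libraries). The collagens have from 6563 to 15228 exon bases. Of the 1066 tested genes in that range, 67 were called higher, or 6.29%, and 7 of these 67 were collagens. Of 1693 genes with fewer exon bases, 70.3% were called higher. Among the 448 genes that also lay in the collagens' range of GC content, from 48.3% to 61.6%, 7.81% were called higher, and this share was 10.6% of 179 genes when a mean of at least 10 RPKM was also required. These shares are descriptions of a selected list and carry no test. Within the 8 collagens, Spearman's rho of log2 fold change was -0.62 with exon bases and 0.62 with GC content (n = 8 genes), and Col12a1 was the longest and had the lowest GC content.

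**Figure D3:**
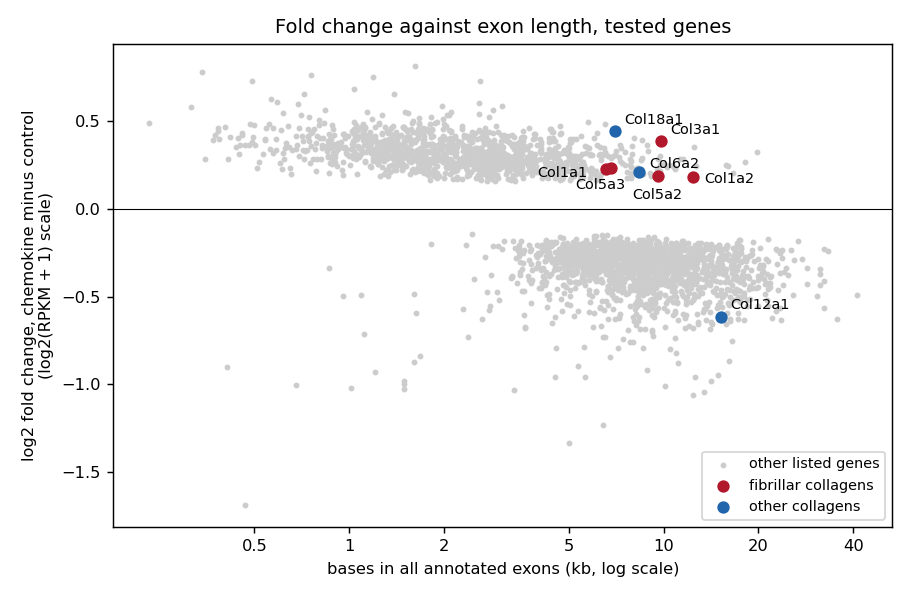
Log2 fold change (y axis, log2(RPKM + 1) scale) of each tested gene against its exon bases (x axis, kb, log scale), with other listed genes in grey, fibrillar collagens in red and other collagens in blue. The empty band around 0 comes from the authors' selection, and the 7 collagens that rose lie above it at lengths where 6.29% of genes do.

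With the smooth trend of each library with exon bases and GC content removed, all 8 collagens kept their direction and passed. The rises were larger and the fall was smaller. The trend was fitted on the selected genes alone. In the collagens' range of exon bases their median log2 fold change was -0.31, so removing the trend raises the values of long genes. Sizes, ranks and calls after removal thus depend on the selection. Col3a1 reached a log2 fold change of 0.71 ± 0.04 (SE, limma adjusted p = 0.000436), the highest of the 2953 genes in that fit, and Col18a1 reached 0.63 ± 0.05. Col5a2, Col1a2, Col6a2, Col5a3 and Col1a1 followed, with 0.52, 0.51, 0.48, 0.40 and 0.39. Col12a1 was at -0.24 ± 0.05 (SE, limma adjusted p = 0.008). Of all genes in this fit 19.6% were called higher and 20.2% lower. At a fold of at least 1.2, 5 collagens were called higher, Col3a1, Col18a1, Col5a2, Col1a2 and Col6a2, and Col12a1 was not called, beside 3.05% of all genes higher and 2.10% lower.

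The exon bases of several collagens are well above their longest transcript, so the trend was also removed with the length of that transcript. Log2 fold changes were then 0.65 ± 0.05 for Col18a1, 0.64 ± 0.04 for Col3a1 and -0.20 ± 0.04 for Col12a1 (SE). The other 5 lay between 0.39 (Col6a2) and 0.53 (Col5a2). All 8 passed by limma, beside 491 listed genes called higher and 498 lower in this fit. At a fold of at least 1.2, 4 collagens were called higher, Col3a1, Col18a1, Col5a2 and Col1a1. Col12a1 was not called by that rule, which called 82 listed genes higher and 45 lower. Of the 1192 tested genes with a longest transcript in the collagens' range, from 4912 to 11511 bases, 4.28% were called higher on the deposited values.

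**Figure D4:**
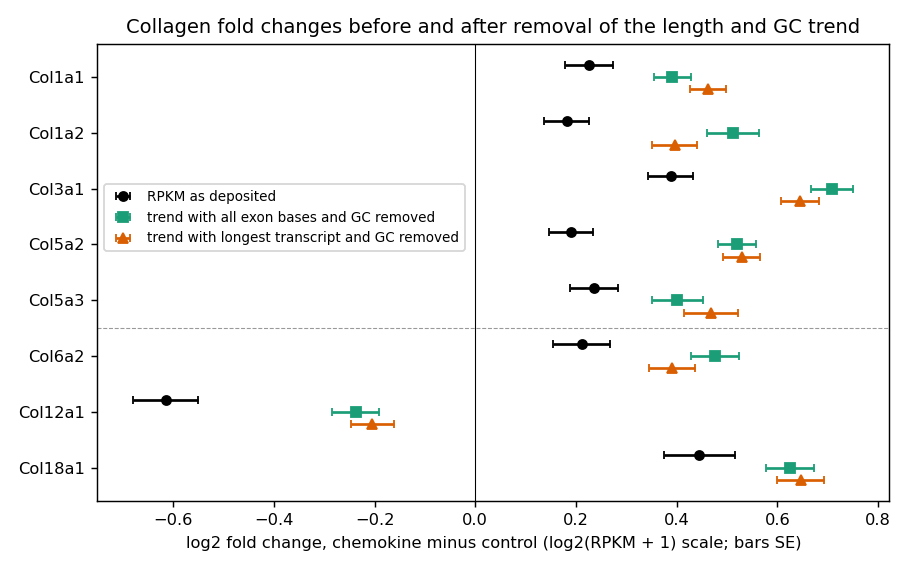
Log2 fold change of each collagen (x axis, bars SE) on the deposited RPKM, with the trend of exon bases and GC removed, and with the trend of longest transcript and GC removed. In both corrected sets the 7 rises are larger than on the deposited values, and Col12a1 moves from -0.61 to -0.24 and -0.20. Both trends were fitted on the selected genes alone.

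Col4a3bp, which the name pattern also took in, had 12.6 and 11.9 RPKM in the controls and 10.1 and 9.68 RPKM in the chemokine libraries. Its log2 fold change was -0.29 ± 0.05 (SE, limma adjusted p = 0.001), and 0.015 ± 0.04 with the trend of exon bases and GC removed, where it did not pass (limma adjusted p = 0.793). It shares 267 exon bases with the antisense gene Gm48133, and the strand setting is not given in the sources used here.

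By position in GRCm38 the 8 genes lie on 5 chromosomes. Col3a1 (ENSMUSG00000026043, chromosome 1, 45311538 to 45349706, plus strand) and Col5a2 (ENSMUSG00000026042, chromosome 1, 45374321 to 45503282, minus strand) are neighbours with their ends facing each other, 24614 bases apart, and both rose. Col6a2 (ENSMUSG00000020241, chromosome 10, 76595762 to 76623630) and Col18a1 (ENSMUSG00000001435, chromosome 10, 77052178 to 77166548) are both on the minus strand, 428547 bases apart, and both rose. Col12a1 (ENSMUSG00000032332, chromosome 9, 79598991 to 79718831) and Col5a3 (ENSMUSG00000004098, chromosome 9, 20770050 to 20815067), also both on the minus strand, moved in opposite directions. Col1a1 (ENSMUSG00000001506) lies on chromosome 11 from 94936224 to 94953042 and Col1a2 (ENSMUSG00000029661) on chromosome 6 from 4504814 to 4541544, both in plus orientation. The 8 genes are all protein-coding, and apart from Col3a1 none shares exon bases with another annotated gene.

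The bases before the annotated start were compared for the collagens that rose. RefSeq windows on GRCm38.p6 matched 5 of the 8 genes, namely Col1a2, Col3a1, Col5a3, Col6a2 and Col18a1, with 7 windows. The 250 bases before the start were searched on both strands for 4 short motifs, whose matches in the windows shown did not overlap each other. The CCAAT box is CCAAT and stands in 33.9% of all 32851 windows. The TATA motif searched is TATAAA and stands in 12.4%. The GC box is GGGCGG and stands in 32.7%. The AP-1 motif is TGANTCA and stands in 6.75%. TGANTCA was in 0 of the 7, which at its share of all windows says little. CCAAT was in windows of Col18a1, Col1a2 and Col5a3, and GGGCGG in windows of these genes and Col6a2. TATAAA was in that of Col3a1. Several windows reach into annotated exons of their gene, by up to 241 bases for Col18a1, 226 for Col6a2 and 127 for Col1a2. The windows of Col3a1 (chr1:45311288-45311537, plus strand) and Col5a3 (chr9:20815068-20815317, minus strand) are shown because they lie wholly outside annotated exons of these genes and because these fibrillar genes rose with different letters before their starts. Matches are in capitals.
Col3a1: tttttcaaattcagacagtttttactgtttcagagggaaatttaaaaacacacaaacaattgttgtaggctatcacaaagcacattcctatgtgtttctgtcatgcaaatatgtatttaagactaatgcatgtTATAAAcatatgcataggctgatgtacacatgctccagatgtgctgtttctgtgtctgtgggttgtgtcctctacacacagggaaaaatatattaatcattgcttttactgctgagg
Col5a3: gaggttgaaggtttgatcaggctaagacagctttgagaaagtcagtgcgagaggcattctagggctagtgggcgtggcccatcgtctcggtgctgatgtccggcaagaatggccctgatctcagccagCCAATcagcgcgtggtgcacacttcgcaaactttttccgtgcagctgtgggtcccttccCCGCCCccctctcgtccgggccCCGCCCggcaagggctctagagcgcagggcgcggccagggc

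In Col3a1 the match was TATAAA at -117 to -112 from the annotated start. In Col5a3 the matches were CCAAT at -122 to -118 and GGGCGG, read on the other strand, at -63 to -58 and at -41 to -36. A match is a description of letters and not of a bound factor.

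Genes that modify, transport, cleave and crosslink collagen moved both ways. Of 40 such genes 12 were in the table, of which 7 rose and 5 fell, beside 42.8% of all tested genes called higher and 57.2% lower. The list's median log2 fold change was 0.19, against -0.23 over all tested genes. With the trend of exon bases and GC removed these medians were -0.060 and -0.0021, so the contrast was not kept. Those that rose included Pcolce2, an enhancer of the proteinase that removes procollagen ends, from 2.48 and 2.80 RPKM in the controls to 3.46 and 3.86 RPKM. Kdelr2, which returns chaperones to the endoplasmic reticulum, and Crtap, of the prolyl 3-hydroxylase complex, were higher by 0.27 ± 0.06 and 0.26 ± 0.06, also in log2 units (SE). Proteinases and crosslinking enzymes were among those that fell. Loxl4, a lysyl oxidase, fell from 4.71 and 4.82 RPKM to 3.40 and 3.59 RPKM. Adamts14, which removes the N-terminal propeptide, fell from 7.49 and 7.33 RPKM to 6.18 and 5.51 RPKM. Tll1, a procollagen C-proteinase, fell from 5.29 and 5.43 RPKM to 4.45 and 3.78 RPKM. None of the 12 passed at a fold of at least 1.2. With the trend of exon bases and GC removed, 3 were called higher and 2 lower, beside 19.6% and 20.2% of all genes, with Pcolce2 (0.42 ± 0.06), Loxl4 (-0.38 ± 0.05) and Adamts14 (-0.23 ± 0.04) among them and Kdelr2, Crtap and Tll1 not. With the trend of longest transcript removed Adamts14 no longer passed (-0.12, limma adjusted p = 0.0529).

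Of 11 collagen receptors 2, Itga2 and Ddr2, were in the table and both fell, beside 57.2% of all tested genes that were called lower. Both lie in the collagens' range of exon bases, where 6.29% of genes were called higher, so 2 falls are near the background. Itga2, the integrin subunit that pairs with the beta 1 subunit to bind collagen, had 3.50 and 3.91 RPKM in the controls and 1.74 and 1.69 RPKM in the chemokine libraries. Its log2 fold change was -0.79 ± 0.06 (SE, limma adjusted p = 0.000135), and it passed at a fold of at least 1.2 (limma adjusted p = 0.00139). Ddr2, a receptor tyrosine kinase for fibrillar collagens, went from 24.0 and 24.6 RPKM to 20.9 and 20.3 RPKM, a log2 fold change of -0.23 ± 0.05 (SE). With the trend of exon bases and GC removed Itga2 passed (-0.54 ± 0.05), while Ddr2 turned to 0.095 ± 0.04 without passing.

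Proteins that bind fibrils or regulate their assembly were represented by 4 of 20 listed genes, of which 1 rose and 3 fell, beside the same background. Dcn, which encodes decorin, a proteoglycan on fibril surfaces, had 107.7 and 107.9 RPKM in the controls and 121 and 123 RPKM in the chemokine libraries, and rose by 0.18 ± 0.04 on the log2 scale (SE, limma adjusted p = 0.00405). For Dcn the log2 fold change was 0.17 when control 1 was left out and 0.18 when control 2 was. The call was lost in both of these fits, each with 1 control library. The log2 fold change was -0.38 ± 0.05 for Thbs1 (thrombospondin 1), -0.39 ± 0.06 for Fbn1 (the microfibril protein fibrillin 1) and -0.15 ± 0.05 for Fbln2 (fibulin 2), all SE. The Fbln2 call was lost without control 1 (limma adjusted p = 0.124), without control 2 (limma adjusted p = 0.1) and with each library centred on its median (-0.045, limma adjusted p = 0.364). With the trend of exon bases and GC removed Dcn (0.40 ± 0.04) and Thbs1 (-0.19 ± 0.04) passed, while Fbn1 (-0.035 ± 0.04) and Fbln2 (0.018 ± 0.04) did not. With the trend of longest transcript removed Thbs1 did not pass either (-0.082, limma adjusted p = 0.154).

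Of the short marker lists used here, few genes of other cell types were in the table. Markers outside these lists were not examined. Of 10 fibroblast markers 6 were listed, but 3 of these are Col1a1, Col1a2 and Col3a1 themselves. Of the other 3, Dcn and Vim rose and Fn1 fell. The 10 leukocyte markers were represented by Itgam and Mrc1, which summed to 22.5 and 22.4 RPKM in the controls and 17.2 and 16.1 RPKM in the chemokine libraries. Of 10 epithelial markers, Krt18 rose from 7.29 and 7.07 RPKM to 9.69 and 10.1 RPKM, and Sftpb, too low to be tested, had 1.18 and 1.24 RPKM in the controls and 0.391 and 0.331 RPKM in the chemokine libraries. Of 5 mesothelial markers the table held Krt19, which rose from 5.84 and 5.76 RPKM to 7.52 and 7.98 RPKM. Of 6 smooth muscle and pericyte markers, Cnn1 and Acta2 rose to 1.14 and 1.13 times their control means and Myh11 fell to 0.779 times. Krt18, Krt19, Cnn1 and Acta2 thus rose along with 7 of the collagens, while Sftpb, Myh11, Itgam and Mrc1 fell. Krt18, Krt19, Sox18 and Pecam1 have 1437, 1855, 1620 and 6228 exon bases. All lie below the collagens' range, where 70.3% of tested genes were called higher. The part of these cell types in the collagen changes was not tested.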

How the data were processed

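RNA of mouse lung fibroblasts was sequenced in 4 libraries. GRCm38 (mm10), TopHat2 2.0.7 and DESeq2 are named, without their roles, per the submitters' processing notes. What counter, strand setting, annotation and rule of selection were used is not given in the sources used here. Deposited by the authors were 1 RPKM value per gene and library and 1 fold, the linear ratio of the chemokine to the control group. The RPKM unit was worked out from the values, which equal whole reads times 1000000000 over a length and a whole library total, with a relative error of at most 9.89e-15. Lengths equal the union of exons in GENCODE M21 for 1176 of 2979 genes, 6 collagens among them.

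The test was limma 3.58.1 in R 4.3.3 on log2(RPKM + 1), a scale that understates changes of low genes, with a trend of variance on mean, over the 2956 genes averaging 1 RPKM or more, Benjamini-Hochberg adjusted over all of them at 0.05, two-sided. All SE and adjusted p-values come from it or from limma's test against a fold of 1.2. The test was checked on simulated data in which no genes had been selected, so that check does not cover p-values of a selected list. Length and GC trends were removed per library with natural splines of 4 degrees of freedom each, fitted on the listed genes. Collagens were all named, with up to 6 members of each pathway list by size of change. Members and lists were chosen with earlier results of these data known. The 2 libraries of a pair differed by more than sampling noise (chi-square per gene 3.65 in the control and 11.1 in the chemokine pair, over the 1176 genes), so they were kept as separate samples. Counting error is given for the single library with the fewest reads, so that of a gap between 2 libraries is larger. The lowest collagen read number has a counting error of 2.79%, and for Col5a2 and Col5a3 counting error is as large as the gap between replicates or larger. For Col12a1 it is 0.860%, beside gaps of 0.810% in the controls and 13.3% in the chemokine libraries. For Col3a1, on best-fit reads, counting error is 0.817%, beside gaps of 0.861% in the controls and 0.418% in the chemokine libraries.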

Additional observations from a re-analysis of the deposited data

How the results depend on the processing

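Under 11 other settings and 2 chosen after seeing the data, each of the 8 collagens kept its direction wherever it was tested. Col6a2 and Col18a1 were not tested at a mean of 10 RPKM. Since the groups overlap in no listed gene, only centring and the removal of a trend could have changed a direction. The calls lost were those of Col1a2 and Col6a2 without control 2, a fit with 1 control library. At a fold of at least 1.2, collagens called higher were 2 with a pseudocount of 0.1, 2 with centred libraries, 5 and 4 with the trend removed by exon bases and by longest transcript, 1 with the replicate block, and 0 to 2 with 1 library left out; collagens called lower were 0 with either trend removed. All listed genes by that rule numbered 181 higher and 518 lower with a pseudocount of 0.1, 52 and 86 at a mean of 10 RPKM, 514 and 163 when centred, 62 and 45 lower with the trends removed, and 33 to 490 higher and 146 to 708 lower with 1 library left out. Centring removed a median shift of -0.103 (log2). Without the fold, listed genes called were 580 higher and 597 lower, and 491 and 498, with the trends removed, and 691 lower at a mean of 10 RPKM.

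The fibrillar minus other median was 0.014, -0.020 with a pseudocount of 0.1, 0.84 at a mean of 10 RPKM, where Col12a1 was the only other chain, 0.078 with the longest-transcript trend removed, and -0.035 to 0.063 with 1 library left out. Synthesis genes called lower were 2 at a mean of 10 RPKM; with the trends removed 3 and 2 were higher and 2 and 2 lower. Receptors and regulators called lower were 2 and 1 with the trends removed, and called higher 2 with the second and 0 to 1 with 1 library left out. With the trends removed these turned sign: Col4a3bp (0.015), Crtap (-0.095 and -0.057), Kdelr2 (-0.028), Ddr2 (0.095 and, past the threshold, 0.16), Fbln2 (0.018 and 0.0052) and Fbn1 (0.0069). The cause was not tested.

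Same-numbered libraries shared only a number. Their deviations correlated at -0.157 across genes; the replicate block gave 155 higher at a fold of at least 1.2, and the crossed numbers 188. The block changed no plain call of a collagen.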

Other observations

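The listed genes nearest to Col1a1 and Col12a1 in the pattern of the 4 libraries were found by the distance between log2(RPKM + 1) deviations from the gene mean, as a description over 4 libraries. For Col1a1 they were Pcdhgb1, Pcdhga9 and Pcdhga2 of the gamma protocadherin cluster, whose genes share 3′ exons and so can share reads, at distances of 0.0072, 0.0074 and 0.0094. Pcdhgb1 had 19.9 and 20.1 RPKM in the controls and 24.0 and 23.0 RPKM in the chemokine libraries. For Col12a1 they were 9930111J21Rik2, Cep85l and Map1b, at distances of 0.019, 0.024 and 0.025. The first of these had 2.02 and 2.02 RPKM in the controls and 1.08 and 0.834 RPKM in the chemokine libraries. Cep85l went from 1.75 and 1.83 RPKM to 0.948 and 0.703 RPKM. At such low levels log2(RPKM + 1) understates changes, so as ratios of RPKM both fell further than Col12a1. Map1b, a microtubule-binding protein, had 6.87 and 6.96 RPKM in the controls and 4.58 and 3.94 RPKM in the chemokine libraries, and has 15846 exon bases, close to the 15228 of Col12a1.

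Dividing reads by the longest transcript in place of the length behind the deposited values changed the order of collagen levels but no ratio of RPKM between libraries within a gene. Col1a2 then had 211 and 206 RPKM in the controls against 199 and 199.8 RPKM for Col5a2, whereas on the deposited scale Col5a2 was the higher. Col3a1 had 84.5 and 83.7 RPKM against 59.3 and 59.8 RPKM for Col12a1 in the same libraries, a wider gap than on the deposited scale. Col6a2 had 8.81 and 8.22 RPKM against 7.19 and 6.82 RPKM for Col18a1, so these 2 also changed places.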
